A study of Mus musculus with 12 samples.

Results

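The genes described here border the cluster of class I odorant receptor genes on mouse chromosome 7 without being receptors themselves. They are the 10 rows of the table with the symbols Nup98, Stim1, Rrm1, Smpd1, Apbb1, Hpx, Arfip2, Ilk, Taf10 and Tpp1, out of 39395 complete rows. RNA came from the olfactory mucosa, the lining of the nose in which odours are sensed. The tested animals were 6 males with the genotype delta large deletion, which removes 408217 bp of chromosome 7 (GRCm38, 102509797 to 102918014). They were set against 6 wildtype males. All 12 were of mixed 129S6;C57BL/6J strain and at postnatal day 30, and each gave 1 ribodepleted, strand-specific library of total RNA. The labels do not say whether the deletion animals carried 1 or 2 deleted copies. With a mixed strain, chromosome 7 around the deletion can also differ between animals in parental strain, and this cannot be told apart from the deletion where it follows genotype.

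Class I receptors are the smaller of the odorant receptor classes of mammals, and their genes lie in a single cluster. Each olfactory sensory neuron expresses a single receptor gene, and distant enhancers take part in that choice. Genes at the borders of such a cluster share its stretch of chromosome but have other functions, many of them needed in most cells. The comparison asks whether they change when the interval that holds the class I enhancer is removed.

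The members form 2 groups. Nup98, Stim1 and Rrm1 lie on the centromeric side, with Rrm1 ending 40026 bp before the deletion and 6.81 kb before the nearest class I receptor gene. Stim1 ends 72.5 kb and Nup98 300 kb before the deletion. The other 7 lie beyond the far end of the cluster, from Smpd1 at 2636 kb to Tpp1 at 2827 kb after the deletion.

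The start regions of the genes at the 2 edges and of Hpx, a member with few reads and no opposite-strand exon over its own, are shown for their CpG content (RefSeq, GRCm38.p6, 300 bases: 250 before and 50 after the start). All 10 genes matched the table. Where it held several starts (Nup98, Apbb1 and Ilk), the one closest to the annotated gene start was taken. Capitals mark CpG dinucleotides, and each line reads 5′ to 3′ on the gene's own strand. Rrm1 lies at chr7:102441445-102441744 on the plus strand, Smpd1 at chr7:105554110-105554409 on the plus strand, and Hpx at chr7:105600067-105600366 on the minus strand.
Rrm1: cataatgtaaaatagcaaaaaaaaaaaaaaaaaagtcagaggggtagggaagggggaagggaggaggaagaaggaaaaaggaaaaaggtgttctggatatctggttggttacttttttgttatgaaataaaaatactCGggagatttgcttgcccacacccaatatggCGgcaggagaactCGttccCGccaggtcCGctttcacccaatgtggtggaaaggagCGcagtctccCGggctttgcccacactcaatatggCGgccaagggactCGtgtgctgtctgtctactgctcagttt
Smpd1: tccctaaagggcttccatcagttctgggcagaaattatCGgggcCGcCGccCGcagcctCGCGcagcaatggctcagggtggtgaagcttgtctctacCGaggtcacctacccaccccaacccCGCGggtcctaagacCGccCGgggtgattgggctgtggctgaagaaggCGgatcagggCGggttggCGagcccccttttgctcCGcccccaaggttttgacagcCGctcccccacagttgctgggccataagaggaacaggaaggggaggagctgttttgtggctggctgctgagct
Hpx: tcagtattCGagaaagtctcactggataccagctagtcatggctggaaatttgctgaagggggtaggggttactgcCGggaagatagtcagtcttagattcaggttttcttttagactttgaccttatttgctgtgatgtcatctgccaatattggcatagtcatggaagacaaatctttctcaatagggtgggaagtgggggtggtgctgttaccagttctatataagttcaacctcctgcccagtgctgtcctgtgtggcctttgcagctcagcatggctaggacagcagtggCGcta

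The Rrm1 region held 9 CpGs, that of Smpd1 16 and that of Hpx 3, against a median of 7 over 32851 start regions. CpG content varied widely among the rest. Stim1 held 38, Nup98 31, Ilk 29, Taf10 27, Arfip2 20, Apbb1 19 and Tpp1 2. The start regions of the 8 class I receptors nearest to the members held 0 to 2. The GC box letters GGGCGG, on either strand, stood in 5 of 10 members and in 35.7% of all start regions. CCAAT, also on either strand, stood in 4 of 10 and in 37.4% of all. The letters TATAAA, 1 form of the TATA box, stood in 0 of 10 on either strand, against 13.6% of all. Other forms of the TATA box were not searched for, and the Hpx region shown above holds TATATAAG. The 0 of 10 thus does not show that no member has a TATA box. The homeodomain letters TAATTA also stood in 0 of 10 on either strand, against 5.29% of all. TAATTA stood in 1 of the 8 receptor start regions. These matches are descriptions of the letters in these windows.

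Recovered whole reads per library ran from 10091239 to 18612011 in deletion animals and from 13942401 to 18044908 in wild-type animals. Of the listed genes, 67.2% to 94.6% had a read in deletion libraries and 65.2% to 69.3% in wild-type libraries, and deletion replicates 2 to 5 lay above every wild-type library. The mature neuron marker Omp averaged 56675 ± 7738 normalized counts in deletion animals and 60163 ± 9286 in wild-type animals (SD, n = 6 each). Omp was thus abundant in both genotypes, as in the labelled tissue. A normalized count is a read count divided by the size factor of its library.

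No member passed the test for a difference between genotypes. Of 10 genes, 8 had enough reads to be tested, and 0 of 8 passed in limma at an adjusted p under 0.05, where 86 of 17320 tested genes did (0.497%). The counts were also 0 of 8 by edgeR (0.514% of tested genes) and by DESeq2 (0.56%). At an unadjusted p under 0.05 the count was also 0 of 8 by limma, edgeR and DESeq2, against 4.39% of all tested genes by limma. The ranges of the genotypes overlapped for all 8, against 0.629% of tested genes whose ranges did not overlap. The log2 fold changes, deletion over wild type, ran from -0.06 to 0.09, with a median of -0.04 beside -0.01 over all tested genes. The 95% confidence intervals of the 8 reached no lower than -0.27, for Taf10, and no higher than 0.21, for Rrm1, which is -17.0% and 15.6% of the wild-type level. The half-widths of the intervals differed by gene, being narrowest for Stim1 and widest for Taf10. An interval that spans 0 does not show that a gene's level was equal in both genotypes. In bulk tissue, a gene's level in fewer cells and a lower level per cell cannot be told apart.

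**Figure D1:**
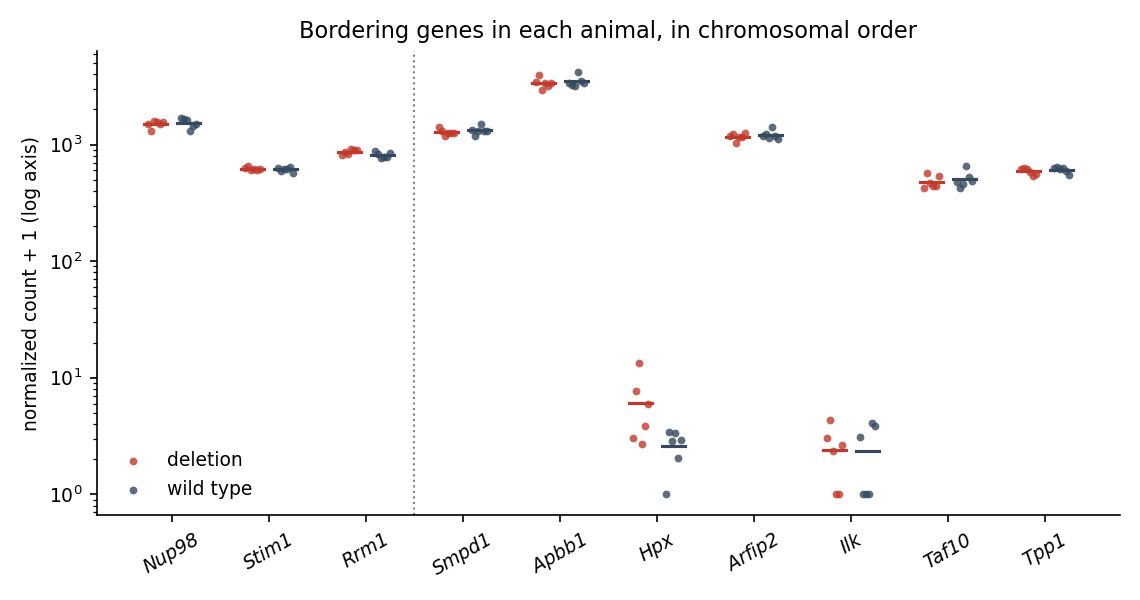
Normalized count plus 1 of each member (log axis) in the 6 deletion animals (red, left of each pair) and the 6 wild-type animals (dark, right), with bars at the group means; the dotted line separates the centromeric from the telomeric genes. The genotypes overlap for all 10 genes, and Hpx and Ilk lie below 14 on this axis while the others lie above 400.

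Rrm1 encodes the large, catalytic subunit of ribonucleotide reductase, the enzyme that makes deoxynucleotides for DNA synthesis. It had 811, 876 and 917 normalized counts (lowest, median and highest) in deletion animals, against 763, 807 and 878 in wild-type animals. All 6 deletion animals lay above the wild-type median, and 1 wild-type animal, replicate 1, lay above the deletion median. The means were 867 ± 40.9 and 813 ± 42.8 in deletion and wild-type animals (SD, n = 6 each), a log2 fold change of 0.09 with a 95% interval of -0.02 to 0.21 (limma adjusted p = 0.955). This was the smallest unadjusted limma p among the members, at 0.114.

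Stim1 encodes the calcium sensor of the endoplasmic reticulum that opens store-operated calcium channels. Its counts were 604, 615 and 647 in deletion animals and 571, 618 and 647 in wild-type animals. The ranges shared their upper end, and wild-type values reached lower. The log2 fold change was 0.01 (95% interval -0.10 to 0.12, limma adjusted p = 0.955). Stim1 was also the steadiest member. Its coefficient of variation over the wild-type animals was 4.24%, below that of all but 6.43% of the 5161 tested genes within 2-fold of its level.

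Nup98 encodes a nucleoporin, and its precursor protein is also cut to give Nup96, a scaffold protein of the nuclear pore. Counts were 1317, 1538 and 1589 in deletion animals and 1305, 1555 and 1685 in wild-type animals. Deletion replicate 2 and wild-type replicate 4 were the lowest of their genotypes, and the ranges overlapped. The log2 fold change was -0.02 (95% interval -0.16 to 0.13, limma adjusted p = 0.955).

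On the telomeric side, all 5 tested genes had slightly negative fold changes, none past the test. Smpd1 encodes acid sphingomyelinase, the lysosomal enzyme that cleaves sphingomyelin. It had 1177, 1262 and 1421 normalized counts in deletion animals, against 1175, 1313 and 1495 in wild-type animals (log2 fold change -0.04, 95% interval -0.18 to 0.09). Tpp1 encodes tripeptidyl peptidase, a lysosomal protease whose loss causes a neuronal ceroid lipofuscinosis in humans. It had 538, 595 and 628 counts in deletion animals and 543, 624 and 645 in wild-type animals (log2 fold change -0.05, 95% interval -0.18 to 0.08). For both lysosomal genes, 1 of 6 deletion animals lay above the wild-type median.

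Apbb1 encodes Fe65, a neuronal adaptor that binds the tail of the amyloid precursor protein, and was the member with the most reads. Counts were 2960, 3379 and 3923 in deletion animals and 3185, 3371 and 4199 in wild-type animals, with medians close together and the highest values in deletion replicate 2 and wild-type replicate 4. Arfip2 encodes arfaptin-2, a membrane-binding protein that interacts with small GTPases of the Arf and Rac families. It had 1037, 1174 and 1250 counts in deletion animals, against 1116, 1180 and 1407 in wild-type animals. Both genes had a log2 fold change of -0.04, with 95% intervals of -0.20 to 0.11 for Apbb1 and -0.18 to 0.09 for Arfip2. Taf10 encodes a subunit shared by TFIID and SAGA, complexes that act at promoters, and varied most among the tested members. It had 423, 457 and 569 counts in deletion animals and 424, 482 and 649 in wild-type animals (log2 fold change -0.06, 95% interval -0.27 to 0.14). The limma adjusted p was 0.955 for each of these 5 genes.

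The authors' deposited table gives its fold change as wild type over deletion, the opposite direction. In the authors' deposited table, the adjusted p was 0.988 to 0.990 for the 8 tested genes, and the smallest unadjusted p among them was 0.0780, for Rrm1 (log2 -0.08, wild type over deletion).

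Ilk and Hpx had almost no reads in this table. The description of the set as widely expressed therefore could not be checked for Ilk, whose exons overlap other genes, and was not borne out in this tissue for Hpx. Ilk encodes integrin-linked kinase, an adaptor that ties integrins to actin through the PINCH and parvin proteins. It had 8 reads in all deletion libraries together and 8 in all wild-type libraries, with 0 reads in 2 and 3 of 6 libraries. A 95% exact Poisson interval around 8 reads runs from 3.45 to 15.8, and it covers counting error only. Its partners were abundant. Parva averaged 3709 ± 275 normalized counts in deletion animals and 3788 ± 201.3 in wild-type animals, and Lims1, a PINCH gene, averaged 1431 ± 121 and 1423 ± 152 in the same order (SD, n = 6 each).

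In GENCODE M21, 89.7% of the exon bases of Ilk lie under exons of Taf10 or Rrp8, which are transcribed from the opposite strand. The main coding transcript, Ilk-201, is covered over all 1795 bases. A stretch of 30 bases in exon 3 of Ilk shows this, at chr7:105740217-105740246 (GRCm38). It is coding sequence in Ilk-201, and its reverse complement lies in the last exon of Taf10-203, after the coding part. All 30 bases pair, so none is set in capitals.
Ilk-201, plus strand: gaaggccgctctgcggtggttgaaatgctg
Taf10-203, minus strand: cagcatttcaaccaccgcagagcggccttc

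Over all listed protein-coding genes that are not odorant receptors, 19 had 85% or more of their exon bases under opposite-strand exons. Of these 19, 18 had a mean wild-type normalized count under 10 (94.7%), and the exception was Echdc1 at 97.5. Several of the 19 are gene models without an established name, such as Gm10337, Gm996, Gm17349 and RP23-139P14.11. The overlap groups were not matched for such models, and the effect of overlap on the counts was not tested. Among 13402 genes with no such overlap, 3903 lay under 10 (29.1%). Among 4662 genes with an overlap above 0 and under 50%, the class of Taf10, 605 did (13.0%), and among 118 genes with 50% to under 85%, 37 did (31.4%). The median wild-type count was 0.560 in the first group and 158 in the group with no overlap. The sources used here do not state the strand setting of the counting. If strand was not used, reads of Ilk cannot be told apart from those of Taf10 and Rrp8, and the part of the overlap in the low Ilk count was not tested. The level of Ilk is treated here as uncertain, and so is that of Taf10, with 45.9% of its exon bases under Ilk exons. Of the other members, only Arfip2 overlaps a gene on the opposite strand, with 5.65% of its exon bases under Timm10b.

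**Figure D2:**
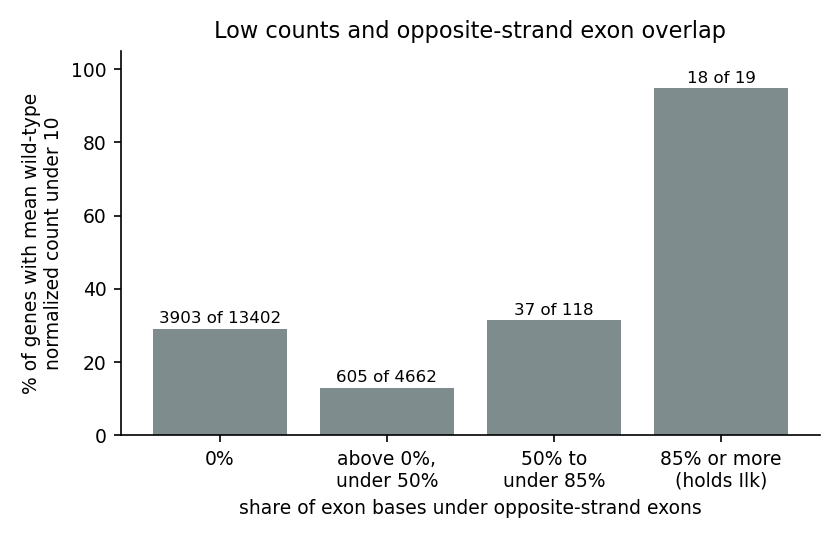
Share of listed protein-coding, non-receptor genes whose mean wild-type normalized count was under 10, by the share of their exon bases that lie under exons of the opposite strand; labels give the counts. The bar for 85% or more, which holds Ilk, stands at 94.7% (18 of 19 genes), above 29.1% for genes with no overlap. The groups were not matched for the kind of gene they hold.

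Hpx encodes hemopexin, a haem-binding plasma protein made mainly by the liver, and no opposite-strand exon lies over its own. It had 1.69, 3.86 and 12.4 normalized counts in deletion animals, against 0, 1.89 and 2.45 in wild-type animals. These are 28 reads in all deletion libraries (95% exact Poisson interval 18.6 to 40.5) and 10 in all wild-type libraries (4.795 to 18.4). The ranges overlapped, and the highest counts were in deletion replicates 3, 2 and 6. In the authors' deposited table its unadjusted p was 0.0436 and its adjusted p 0.988. Without a filter on low counts, limma gave a log2 fold change of 1.10 with an adjusted p of 0.674. Replicates 3 and 2 were also the deletion libraries with reads on the most genes. Defa, Defb, Krtap and Tas2r genes were kept where their mean wild-type count was below that of Hpx, which left 91. Choosing them by wild type favours a low wild-type rate. Their summed rate was 2.95 reads per kb in deletion replicate 3 and 0.760 in deletion replicate 2, against 0.0800 to 0.200 in wild-type libraries. The corresponding rates of Hpx were 6.00 and 4.00 reads per kb, against 0 to 2.00 in wild-type libraries. Deletion replicate 6 also had 4.00 reads per kb of Hpx, but its rate over the 91 genes was 0.120 and 67.4% of listed genes had a read in it, both within the wild-type range. Summed markers of liver plasma proteins ran from 25.3 to 89.3 in deletion animals and from 23.4 to 38.4 in wild-type animals, with 1 of 8, Ahsg, passing the filter and Alb at 0 to 9.61 and 0 to 0.952. Their part in the Hpx counts was not tested.

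Levels of different genes can be set beside each other only per length. Per kb of annotated exon, Apbb1 had the highest mean level, 766 ± 72.4 normalized counts per kb in deletion and 790 ± 83.5 in wild-type animals (SD, n = 6 each). In wild type this lies above 96.0% of tested genes. Smpd1 followed with 384 ± 24.1 in deletion and 396 ± 30.7 in wild-type animals, and Arfip2 with 239 ± 15.3 and 247 ± 21.6 in that order. Nup98, Tpp1 and Taf10 came next with wild-type means of 122, 118 and 110 per kb, and their neighbouring wild-type ranges overlapped, so their order is not resolved. Rrm1 at 73.8 and Stim1 at 59.1 per kb came last of the 8 tested genes, near the middle of all tested genes (percentiles 54.7 and 49.2). Rrm1 is annotated with long retained-intron transcripts. With the same whole-gene count divided by the exon length of coding transcripts only, the wild-type value of Rrm1 was 203 per kb. By this length Nup98 stood at 187 and Tpp1 at 171, and Taf10 came last at 118. Reads on those exons alone were not counted, so these values show only that the order depends on the length used. Divided by only the Taf10 exon bases that no opposite-strand exon covers, its whole count gave 194 per kb in deletion and 203.4 in wild-type animals. That is a level over those bases only if no read on the covered bases was counted, which is not known. The place of Taf10 in the order is therefore not settled. The per-kb levels of Hpx and Ilk in wild type were 1.07 and 0.489.

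The receptor genes beside Rrm1 behaved differently from Rrm1. Olfr543, Olfr544 and Olfr545 lie between Rrm1 and the deletion, and all 3 fell. The summed counts of these receptors were 0, 4.40 and 23.3 (lowest, median and highest) in deletion animals, against 180, 202 and 240 in wild-type animals, without overlap. The log2 ratio of Rrm1 to this sum averaged 7.38 ± 1.68 in deletion animals and 1.97 ± 0.188 in wild-type animals (SD, n = 6 each). The difference of 5.40 had an exact two-sided permutation p = 0.00216, the smallest that 6 against 6 allows, and an adjusted p of 0.00433 over 2 such tests. Every deletion animal had a higher ratio than every wild-type animal. With receptor sums that did not overlap and Rrm1 ranges that did, this follows from the fall of the receptors. The p is therefore no separate test of Rrm1. The size of the difference depends on the pseudocount, since the receptor sum reached 0 in deletion animals, and it was 4.43 with a pseudocount of 5. Rrm1 and these receptors thus differed in their change, and the nearest of them starts 6.81 kb from Rrm1.

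At the far end, Smpd1 was set against the 5 tested class I receptors nearest to it, Olfr686, Olfr689, Olfr690, Olfr691 and Olfr692. Their summed counts were 426, 486 and 572 in deletion animals and 419, 470 and 562 in wild-type animals. The log2 ratio of Smpd1 to this sum averaged 1.39 ± 0.165 in deletion animals and 1.46 ± 0.209 in wild-type animals, a difference of -0.07 within the spread (SD, n = 6 each, exact two-sided permutation p = 0.517, adjusted 0.517). The sum hides unequal members. Olfr690 fell to 56.6 ± 13.6 in deletion animals, against 119 ± 16.5 in wild-type animals (log2 fold change -1.08, limma adjusted p 0.000457). Olfr686 and Olfr689 had log2 fold changes of 0.44 and 0.36, Olfr691 of -0.09 and Olfr692 of -0.59, none past the test over all genes.

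**Figure D3:**
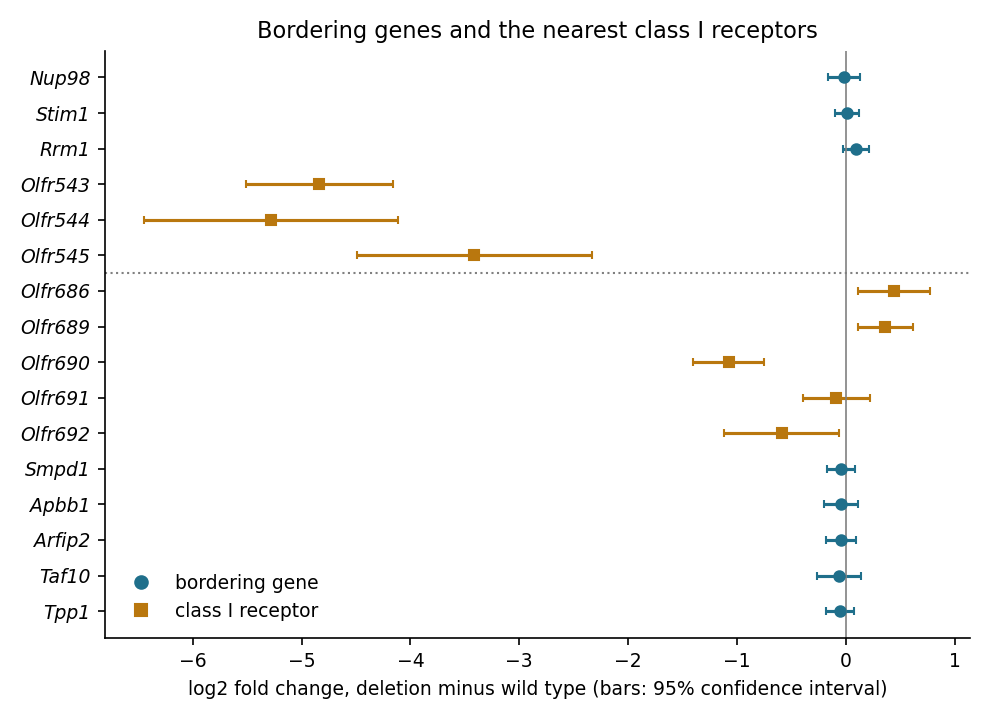
Log2 fold change, deletion over wild type, with its 95% confidence interval from limma for the 8 tested bordering genes (circles) and the class I receptors nearest to them (squares), in chromosomal order; the dotted line marks the deletion. The bordering genes lie between -0.06 and 0.09, while Olfr543, Olfr544 and Olfr545 lie at -4.84, -5.28 and -3.42.

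Other non-receptor genes of the region gave a similar picture on the flanks. Here the cluster was taken as the span from Rrm1 to Smpd1. Within 1 Mb outside the cluster, 15 of 21 listed protein-coding genes on the centromeric flank and 6 of 9 on the telomeric flank were tested, and 0 passed in limma. Their median log2 fold changes were -0.04 on both flanks. At an unadjusted limma p under 0.05 there was 1 of the 15 tested centromeric genes and 0 of the 6 telomeric ones, against 4.39% of all tested genes. This was Folr1, a folate receptor. It averaged 172 ± 17.9 normalized counts in deletion animals and 200.5 ± 25.4 in wild-type animals (SD, n = 6 each, limma adjusted p 0.955). The nearest tested neighbours outside the cluster were Rhog, a small GTPase gene 254 kb before the deletion, and Trim3, a ubiquitin ligase gene 2686 kb after it. Rhog averaged 106.8 ± 5.63 in deletion and 104.5 ± 23.8 in wild-type animals, and Trim3 averaged 766 ± 71.4 and 842 ± 109 in that order (SD, n = 6 each). Cnga4, a subunit of the olfactory cyclic nucleotide-gated channel, lies between the last class I receptor and Smpd1. Cnga4, picked with its values known, averaged 4687 ± 637 in deletion animals and 4764 ± 663 in wild-type animals (SD, n = 6 each, limma adjusted p 0.955).

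Between Rrm1 and Smpd1, 9 of 24 listed non-receptor genes outside the deletion were tested and 0 passed in limma. These 9 include Fam160a2 and Cnga4, which lie beyond the last class I receptor. At an unadjusted limma p under 0.05 there were 3 of these 9, against 4.39% of all tested genes. All 3 were of the Trim family, whose members share sequence, so their single values are uncertain. Trim34a averaged 46.4 ± 11.8 normalized counts in deletion animals and 26.4 ± 2.56 in wild-type animals (SD, n = 6 each, log2 fold change 0.75, limma adjusted p 0.0888). It passed by DESeq2 (log2 fold change 0.82, adjusted p 0.0166) and in limma without deletion replicate 2 (0.87, adjusted p 0.0152). Trim12c had a log2 fold change of -0.27 and Trim34b of -1.72, with limma adjusted p-values of 0.583 and 0.955. Deletion replicates 2 and 3 had 40.4 and 22.0 normalized counts of Trim34b. The low values lay in the other deletion animals, at 0 to 5.90, against 14.5 to 31.4 in wild-type animals. Without these 2 libraries Trim34b passed in limma (log2 fold change -2.82, adjusted p 0.00184). 

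**Figure D4:**
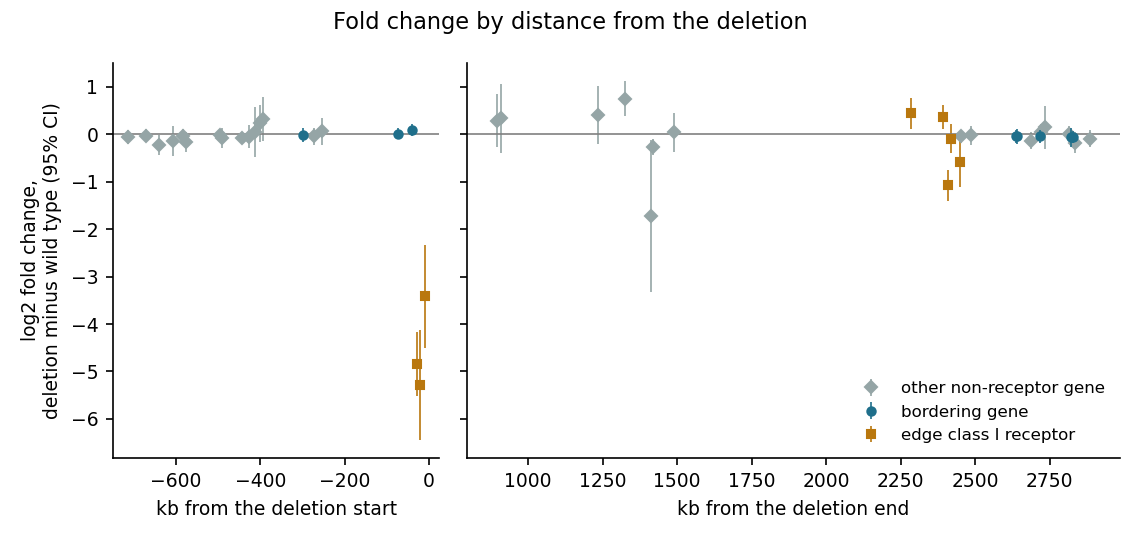
Log2 fold change, deletion over wild type, with 95% confidence intervals (limma) against distance in kb from the start (left panel) and end (right panel) of the deletion, for the tested bordering genes (circles), other tested non-receptor genes within 1 Mb of the cluster or inside it (diamonds) and the class I receptors at the cluster's edges (squares). The bordering genes stay between -0.06 and 0.09 on both sides, while Trim34b, inside the cluster, reaches -1.72.

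Genes that act with the members were followed as 9 lists by role, and 0 of 161 tested genes in them passed by limma, edgeR or DESeq2. At an unadjusted limma p under 0.05 there were 4 of 161, against 4.39% of all tested genes. In the deoxynucleotide supply list of Rrm1, 0 of 14 passed (median log2 fold change 0.04), with Nme1, a nucleoside diphosphate kinase, at -0.22. Rrm2, the small subunit that pairs with Rrm1 in dividing cells, averaged 177 ± 28.4 in deletion animals and 170 ± 28.6 in wild-type animals (SD, n = 6 each). In the store-operated calcium list of Stim1, 0 of 14 passed (median -0.03), with Itpr1, an inositol trisphosphate receptor, at -0.10 and Atp2b1, a plasma membrane calcium pump, at 0.09. In the nuclear pore list of Nup98, 0 of 28 passed (median 0.02), with Nup62 at 0.13 and Aaas at 0.15.

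For the lysosomal list of Smpd1 and Tpp1, 0 of 29 passed, and 24 of 29 had a negative fold change (median -0.07), where 9368 of 17320 tested genes did. Ctsl, a lysosomal protease, had 1856 ± 108 normalized counts in deletion animals and 2028 ± 112 in wild-type animals (SD, n = 6 each, log2 fold change -0.13, limma adjusted p 0.955). Grn, the progranulin gene, had a log2 fold change of -0.14. Markers of several cell types also had mostly negative fold changes, with 0 past the test. These were 7 of 7 endothelial, 6 of 6 bone and fibroblast, 5 of 5 sustentacular, 5 of 5 glial, 4 of 4 horizontal basal, 4 of 4 Bowman gland, 4 of 4 tested neutrophil and 4 of 6 immune markers. Mature neuron markers were negative for 10 of 12, and muscle markers for 2 of 4 tested. Other lists were mostly positive, with 6 of 6 precursor, 6 of 6 tested erythroid, 8 of 11 proliferation and 4 of 7 immature neuron markers. The 1 tested liver marker was also positive. The summed level of each list overlapped between genotypes. Sustentacular markers, for example, summed to 151310 to 181652 in deletion animals and 157450 to 221527 in wild-type animals, and immune markers to 2047 to 2478 and 2128 to 2517 in that order. Their part in the lysosomal values was not tested. In the amyloid precursor list of Apbb1, 0 of 15 passed (median -0.02), with Psenen, a gamma-secretase subunit, at 0.19 and Apba2, an adaptor of the X11 family, at 0.11. In the Arf and Rac list of Arfip2, 0 of 8 passed (median -0.05), with Pick1, a BAR domain protein, at -0.22 and Gbf1, an Arf exchange factor, at -0.11.

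For the haem handling list of Hpx, 0 of 13 passed (median -0.01), with Lrp1, the receptor for the haem-hemopexin complex, at -0.24 and Ftl1, ferritin light chain, at -0.16. In the integrin adhesion list of Ilk, 0 of 14 passed (median -0.04), with Itgb3 at -0.22 and Fermt2, a kindlin, at -0.09. In the TFIID and SAGA list of Taf10, 0 of 26 passed (median 0.01), with Supt7l, a SAGA subunit, at 0.15 and Tada2a, a subunit of acetyltransferase complexes, at 0.10.

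Between animals, Rrm1 followed the level of proliferation genes. Over the 12 animals, log2 Rrm1 and the log2 sum of 11 proliferation genes (Mki67, Top2a, Rrm2 and others) had Pearson's r = 0.910 and Spearman's rho = 0.923 (permutation p = 1e-05 and 9e-05, adjusted over 4 relations 4e-05 and 0.00036). The first p is the smallest that 100000 permutations can give. Within deletion animals r was 0.861 and within wild-type animals 0.953. Without the 2 animals farthest from the median sum r was 0.852, and without any single animal it ran from 0.886 to 0.932. The summed proliferation genes ran from 5211 to 6176 in deletion animals and from 4695 to 6021 in wild-type animals, so Rrm1 and these genes were both somewhat higher on average in deletion animals. Of the 11, 0 passed by limma (median log2 fold change 0.11), and their part in the Rrm1 difference was not tested.

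**Figure D5:**
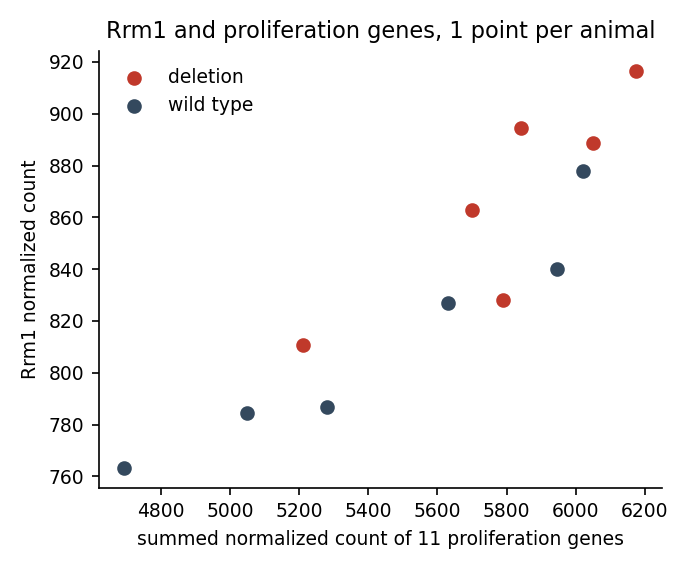
Normalized count of Rrm1 against the summed normalized count of 11 proliferation genes in each of the 6 deletion animals (red) and 6 wild-type animals (dark), 1 point per animal. Both genotypes lie along a common rise (r = 0.861 within deletion animals and 0.953 within wild-type animals), and their ranges overlap on both axes.

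Apbb1 was set against 12 markers of mature olfactory sensory neurons in the same way (r = 0.768, permutation p = 0.00377, adjusted 0.00754; rho = 0.594, permutation p = 0.045, adjusted 0.0901). The relation rests on the 2 animals farthest from the median sum, since r was 0.465 without them. Within deletion animals r was 0.925 and within wild-type animals 0.608. The summed markers ran from 146110 to 192016 in deletion animals and from 151547 to 200510 in wild-type animals. Ilk with endothelial markers (r = 0.0971, permutation p = 0.784) and Hpx with erythroid markers (r = 0.138, permutation p = 0.673) completed the 4 relations. With 0 to 9 reads per library, neither is informative.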

How the data were processed

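Libraries were aligned with STAR 2.6.0 to GRCm38.p6 and DESeq2 was used, per the submitters' processing notes; the counter and its strand setting are not stated in the sources used. Per the file headers and values, the deposited columns hold a signal per gene: whole read counts scaled by one size factor per library. Whole reads were recovered (100% of values, tolerance 0.01 of a read). The deposited table also holds the authors' log2 fold change (wild type over deletion), p-value and adjusted p-value, and a Wald score that was not used. It ends within a row, so 1 incomplete row was left out.

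Positions and exons came from GENCODE M21 (99.7% of IDs matched). The test was limma 3.58.1 (R 4.3.3) on log2(value + 1) with group as the only term, after edgeR 4.0.16's expression filter with a minimum count of 10. Fold changes on this scale understate the change of low genes. Two-sided p-values were adjusted by the Benjamini-Hochberg method across 17320 genes. The model was tested on simulated data. The recovered reads were also tested with edgeR's quasi-likelihood test and with DESeq2 1.42.0. Replicate numbers shared by the groups were checked for pairing.

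Named were all members, the nearest tested neighbour on each side, neighbours with an unadjusted p under 0.05, up to 2 genes per partner list by smallest p (1 that the rule names is not reported here), and the class I receptors at the edges; genes outside this rule (Rrm2, Parva, Lims1, Omp, Alb, Ahsg, Cnga4, Echdc1) were chosen with values known. The members, lists and tests were chosen with earlier results of these data known. The further marker lists (immature neuron, precursor, basal, sustentacular, gland, neutrophil, bone, glia and muscle) had 0 genes past the limma threshold.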

Additional observations from a re-analysis of the deposited data

Results flagged for a closer look

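Chance sets an animal apart from the other 5 of its genotype in about 1 in 20 sets of values, or 2.2 of the 44 examined here, and 3 were found. In deletion animals, Nup98 had 1317 normalized counts in replicate 2, while the remaining 5 had 1502 to 1589. In wild-type animals, Apbb1 had 4199 in replicate 4, while the remaining 5 had 3185 to 3516. Olfr545, the receptor gene nearest to the deletion on the side of Rrm1, had 9.61 in deletion replicate 3, while the remaining 5 deletion animals had 0 to 3.37.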

How the results depend on the processing

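The count of members called was 0 under all 23 alternatives, and so was that of partner list genes. Among the 8 tested members the smallest adjusted p was 0.692 and the smallest unadjusted p 0.0411, both for Rrm1; without a filter Hpx had 0.674 and 0.0264. All genes called numbered 50 with a minimum count of 50, and 82 to 98 with single libraries left out. Neighbours called numbered 1 by DESeq2, 1 without a filter (Trim30d), 0 to 1 with single libraries left out, 4 without deletion libraries 2 and 3, and 3 without deletion libraries 2 to 5, an alternative added after seeing the data; all were Trim genes. Rrm1 and Tpp1 kept their sign under each alternative. Fold changes near 0 changed sign for the others: Nup98 was 0.020 with scaling by library totals, 0.0099 without deletion libraries 2 and 3 and 0.0074 without 2 to 5, where Smpd1 was 0.025 and Arfip2 0.016. With single libraries left out, Nup98 ran from -0.064 to 0.020, Stim1 from -0.0079 to 0.028, Apbb1 from -0.088 to 0.011, Arfip2 from -0.066 to 0.00043 and Taf10 from -0.11 to 0.011, the last 3 positive only without wild-type replicate 4. The Smpd1 ratio was 0.013 without deletion libraries 2 to 5 (-0.11 to -0.0069 with single libraries left out), and the Rrm1 ratio 4.92 to 5.86, with 4.43 at a pseudocount of 5, 5.69 at 0.5, 6.28 without deletion libraries 2 and 3 and 6.95 without 2 to 5. Same-numbered animals did not deviate together (correlations -0.24 to -0.0073, 0 of 6 best with their own number), and the replicate block called 77 genes and 0 members. The cause of these shifts was not tested. Hpx and Ilk had 0 to 9 reads per library, which limits the precision of their values.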

Other observations

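Several members had their extreme values in the same animals. In wild-type replicate 4, Apbb1 (4199), Smpd1 (1495), Arfip2 (1407) and Taf10 (649 normalized counts) each had their highest wild-type value, and Nup98 (1305) its lowest. In deletion replicate 2, Apbb1 (3923) and Taf10 (569) had their highest deletion value and Nup98 (1317) its lowest. The summed mature neuron markers were highest in the same animals, 192016 in deletion replicate 2 and 200510 in wild-type replicate 4. Their part in these values was not tested.

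Inside the cluster, Trim12a and Trim5 did not pass the expression filter. Their counts, and those of Trim34b next to Trim12a, set deletion replicates 2 and 3 apart from the other deletion animals. Trim34b had 40.4 and 22.0 normalized counts in deletion replicates 2 and 3 and 0 to 5.90 in the other deletion animals. Its wild-type values were 14.5 to 31.4. The cause of this split was not tested. Trim12a had 89.2, 60.7, 127 and 105.3 normalized counts in deletion replicates 1, 4, 5 and 6, 0 and 2.75 in deletion replicates 2 and 3, and 0 to 1.16 in wild-type animals. Trim5 had 25.6, 13.5, 31.0 and 28.6 in deletion replicates 1, 4, 5 and 6, 0 in deletion replicates 2 and 3, and 0 to 2.45 in wild-type animals.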
